A study of Homo sapiens with 10 samples.

Results

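A list of 30 genes of cholesterol and fatty acid synthesis was followed in 2 human myeloid leukaemia cell lines with and without JOA, an agent that the labels name only by these letters. The genes were taken by symbol as a set regulated by the SREBP transcription factors: 7 act in the mevalonate and isoprenoid steps, 11 from squalene synthesis to cholesterol, 5 in sterol-responsive regulation and transport, and 7 in fatty acid synthesis and desaturation. All 30 were found in the NB4 table, among 22040 genes, and 18 in the Kasumi-1 table, among 10802 symbols. The other 12 (MVK, MVD, FDPS, ACAT2, TM7SF2, NSDHL, HSD17B7, EBP, SC5D, SREBF1, FADS2 and ELOVL6) matched no Kasumi-1 row and were not analysed in that line.

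RNA was sequenced from Kasumi-1, an acute myeloid leukaemia line with the RUNX1-RUNX1T1 fusion, and from NB4, an acute promyelocytic leukaemia line with the PML-RARA fusion. Kasumi-1 had 3 libraries with control and 3 with 1 uM JOA, and NB4 had 2 with control and 2 with 1 uM JOA, each after 48 h. The labels do not say what the control contained, and the treated NB4 libraries carry I13 in their source label but JOA in their titles and agent labels. Each line stands for 1 culture line, and no source says whether replicates came from separate cultures. P-values therefore cover the spread among these libraries alone, which may be technical.

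RUNX1T1 averaged 18.8 FPKM in Kasumi-1 controls and was listed at 0 in both NB4 controls. MPO, the myeloperoxidase of granulocyte precursors, was high in both lines, at control means of 5762 FPKM in Kasumi-1 and 7838 TPM in NB4. Of the other promyelocyte granule genes, AZU1 and CTSG averaged 359 and 365.5 TPM in NB4 controls, while ELANE, the neutrophil elastase, stood at 2.00 and 3.17 TPM. These 3 were not analysed in Kasumi-1, so no marker positively set NB4 apart from it. The FPKM of Kasumi-1 (fragments per kilobase of transcript, scaled to depth) and the TPM of NB4 (transcripts, scaled to a fixed total) come from separate normalisations, so no level is set against that of the other line. Relative depth in Kasumi-1 was 91.4 to 100% of that of control 1, and the depth of NB4 is unknown, since TPM keeps none. In NB4 the granule genes MPO, PRTN3, ELANE, AZU1 and CTSG were all lower in each JOA library than in each control. MPO averaged 7838 TPM in control and 5282 TPM with JOA, and PRTN3 averaged 398 and 83.0 TPM. Mitochondrial transcripts held 14.6 and 16.4% of the control TPM and 11.2 and 13.1% of the JOA TPM. Of markers of other cells, the sum over 9 epithelial and fibroblast genes was 38.8 to 39.9 TPM in NB4 controls and 53.8 to 55.4 TPM with JOA, mostly KRT18 and EPCAM, while KRT19 was listed at 0 in all 4 libraries. The sum over 3 T cell genes was 26.2 to 27.4 TPM and 31.9 to 47.4 TPM, nearly all of it CD3D, with CD3E and CD2 below 0.1 TPM. The part of these shifts in the results below was not tested.

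Cells make cholesterol from acetyl-CoA through mevalonate, isoprenoid units, squalene and a series of sterol intermediates, and they make fatty acids from the same precursor through malonyl-CoA. The SREBP proteins, encoded by SREBF1 and SREBF2, are held in the endoplasmic reticulum membrane by SCAP and the INSIG proteins while sterols are plentiful. When sterols run low they are carried to the Golgi, cut, and enter the nucleus, where they raise transcription of most genes of both pathways, often next to NF-Y, which binds CCAAT boxes, and SP1, which binds GC boxes. INSIG1 is itself a target, so its transcript is widely read as a gauge of SREBP activity.

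The upstream sequences of 6 genes are shown because the largest differences in either line lay among them: HMGCS1, DHCR7 and INSIG1 in NB4, and MSMO1, TMEM97 and STARD4, with HMGCS1, in Kasumi-1. Each comes from the RefSeq promoter table on GRCh38.p14 and is the stretch of the window just outside the annotated exons, written 5′ to 3′ on the strand of the gene. Capitals mark CCAAT or, for the other strand, ATTGG.
HMGCS1 (chr5:43313513-43313662, minus strand): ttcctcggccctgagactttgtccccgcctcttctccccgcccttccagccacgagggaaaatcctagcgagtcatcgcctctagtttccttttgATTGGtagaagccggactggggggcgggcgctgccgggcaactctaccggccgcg
DHCR7 (chr11:71448436-71448643, minus strand): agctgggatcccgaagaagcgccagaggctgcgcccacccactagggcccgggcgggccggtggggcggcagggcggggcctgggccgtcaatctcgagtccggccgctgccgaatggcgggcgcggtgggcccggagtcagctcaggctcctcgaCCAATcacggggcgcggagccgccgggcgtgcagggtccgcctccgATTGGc
INSIG1 (chr7:155297628-155297775, plus strand): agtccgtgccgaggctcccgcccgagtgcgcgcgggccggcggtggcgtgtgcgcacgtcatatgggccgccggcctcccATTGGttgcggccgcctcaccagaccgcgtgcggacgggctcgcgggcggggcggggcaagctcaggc
MSMO1 (chr4:165327419-165327622, plus strand): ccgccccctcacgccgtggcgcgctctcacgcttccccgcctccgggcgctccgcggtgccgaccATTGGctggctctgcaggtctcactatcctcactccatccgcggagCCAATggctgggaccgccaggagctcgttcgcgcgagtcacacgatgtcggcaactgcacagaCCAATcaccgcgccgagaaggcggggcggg
TMEM97 (chr17:28318950-28319094, plus strand): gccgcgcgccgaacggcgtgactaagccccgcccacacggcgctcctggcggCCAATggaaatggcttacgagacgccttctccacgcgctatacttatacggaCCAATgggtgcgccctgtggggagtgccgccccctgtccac
STARD4 (chr5:111512591-111512785, minus strand): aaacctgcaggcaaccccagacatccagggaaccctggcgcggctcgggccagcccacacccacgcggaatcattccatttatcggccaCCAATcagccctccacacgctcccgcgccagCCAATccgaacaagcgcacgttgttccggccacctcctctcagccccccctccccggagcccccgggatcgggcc
The DHCR7 stretch lies before the start of its most abundant transcript and inside the first intron of a longer one, and the other 5 end at the base before the gene starts. MSMO1 carries 3 CCAAT boxes in the stretch shown, DHCR7, TMEM97 and STARD4 carry 2 each, and HMGCS1 and INSIG1 carry 1. STARD4, which was higher with JOA in Kasumi-1, thus holds the same letters as the genes that were lower.

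RefSeq windows, from 250 bases before to 50 bases after the gene start, were held for 26 of the 30 genes. CCAAT, searched on both strands, was present in 18 of 26 (69.2%), against 35.7% of 27305 promoters. The GC box GGGCGG was present in 24 of 26 (92.3%), against 44.6% of all promoters, and the E-box CACGTG in 3 (INSIG1, LSS and SC5D; 11.5%), against 7.43%. The sterol regulatory element core TCACCCCAC was found in 1 window, that of SREBF2 (chr22:41832972-41832980, plus strand), a share of 3.8% against 0.42%, and its looser form TCACNCCAC in the same window alone, against 1.15%. These are matches of letters in a fixed window and not binding sites, and no test was made of the shares.

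In NB4, nearly the whole list stood lower with JOA, led by HMGCS1, DHCR7 and INSIG1, but no single gene passed the test across all genes. On the log2(TPM + 1) scale, 28 of 30 genes had a negative change, with a median of -0.32, against a median of 0.08 over all 13050 genes tested, of which 33.8% were negative. With limma, a linear model across all genes, and Benjamini-Hochberg adjustment, 0 of 30 passed an adjusted p of 0.05, and 2 of all genes did (0.0153%). An unadjusted p under 0.05 was reached by 11 of 30, all lower, against 2.44% of all genes in that direction. Every JOA library lay below every control library in 16 of 30 genes, against 11% of all genes, and above every control in 0 of 30, against 32.5%. In a bulk culture, fewer cells that hold a transcript and less of it per cell cannot be told apart.

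**Figure D1:**
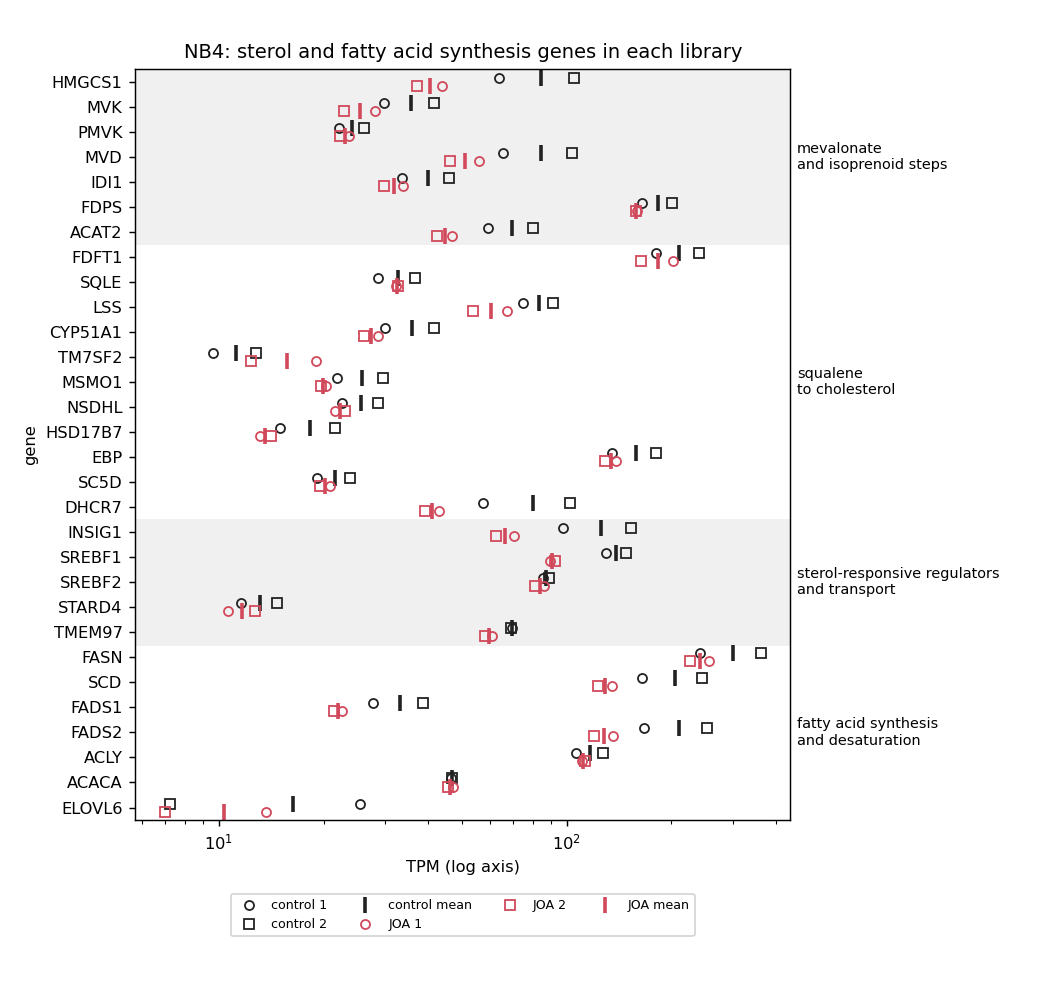
NB4: TPM of each of the 30 genes (log axis) in 2 control libraries (black) and 2 JOA libraries (red), with circles for replicate 1, squares for replicate 2 and bars for group means. In 16 genes both red points lie left of both black points, and control 2 lies right of control 1 in 28 of 30.

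Among the 7 mevalonate and isoprenoid genes, all changes in NB4 were negative, with a median log2 change of -0.46, and 4 were lower at an unadjusted p under 0.05. HMGCS1 (chromosome 5, 43289395 to 43313512), the synthase that joins acetoacetyl-CoA and acetyl-CoA ahead of mevalonate, stood at 63.7 and 104.6 TPM in control and 43.7 and 37.2 TPM with JOA. Both JOA libraries were below both controls, with a log2 change of -1.001 (SE 0.22, limma's adjusted p = 0.211), the most negative of the list. MVD, which makes isopentenyl diphosphate, stood at 65.4 and 103.7 TPM in control and 55.8 and 46.3 TPM with JOA. The MVD groups were also separate, with a log2 change of -0.69 (SE 0.21, limma's adjusted p = 0.332).

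ACAT2, the cytosolic thiolase that makes acetoacetyl-CoA, and MVK, mevalonate kinase, were separate between the groups as well, with log2 changes of -0.62 and -0.46, and FDPS, farnesyl diphosphate synthase, with -0.20. IDI1, which isomerises isopentenyl diphosphate, and PMVK, phosphomevalonate kinase, overlapped between the groups, with log2 changes of -0.30 and -0.06. None of these 5 had a limma's adjusted p under 0.05. PMVK thus stood apart from MVK and MVD, its neighbours in the pathway, in the size of its change, though the difference between the 3 genes was not tested.

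Of the 11 genes from squalene synthesis to cholesterol, 9 had negative changes in NB4, with a median of -0.22, and 2, DHCR7 and LSS, were lower at an unadjusted p under 0.05. DHCR7 (chromosome 11, 71428193 to 71452868), the last reductase on the way to cholesterol, stood at 57.6 and 101.9 TPM in control and 42.9 and 39.1 TPM with JOA. Both JOA libraries lay below both controls, with a log2 change of -0.89 (SE 0.24, limma's adjusted p = 0.292). LSS, which closes the sterol rings to give lanosterol, stood at 74.9 and 91.2 TPM in control and 67.4 and 53.9 TPM with JOA. The LSS groups did not overlap, and the log2 change was -0.45 (SE 0.15, limma's adjusted p = 0.368).

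The lanosterol demethylase CYP51A1, the C4-methyl oxidase MSMO1 and the sterol ketoreductase HSD17B7 were also separate between groups, with log2 changes of -0.36, -0.34 and -0.38. HSD17B7 has a near-identical pseudogene copy, so its value is uncertain. FDFT1 (squalene synthase), EBP (the sterol isomerase), NSDHL (a C4 decarboxylating dehydrogenase) and SC5D (the C5 desaturase) overlapped between groups, with log2 changes of -0.20, -0.22, -0.19 and -0.08. SQLE, the squalene epoxidase and a slow step of the pathway, stood at 28.7 and 36.6 TPM in control and 32.3 and 32.8 TPM with JOA. Its JOA values lay between the controls, with a log2 change of 0.01 (SE 0.15), which turned to -0.08 with median-ratio scaling. TM7SF2, a C14 sterol reductase, stood at 9.61 and 12.8 TPM in control and 19.1 and 12.4 TPM with JOA, a log2 change of 0.44 (SE 0.23, limma's adjusted p = 0.538). Only JOA 1 was above the controls for TM7SF2, and the groups overlapped.

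All 5 regulators and transport genes had negative changes in NB4, with a median of -0.22, and 2, INSIG1 and SREBF1, were lower at an unadjusted p under 0.05. INSIG1 (chromosome 7, 155297776 to 155310235), the sterol-dependent anchor of SCAP, stood at 97.4 and 152.9 TPM in control and 70.8 and 62.6 TPM with JOA. The groups did not overlap, with a log2 change of -0.86 (SE 0.20, limma's adjusted p = 0.235). SREBF1 (chromosome 17, 17810399 to 17837002) stood at 129.7 and 147.6 TPM in control and 89.7 and 92.4 TPM with JOA. Its replicates lay closer together than those of INSIG1, and its log2 change of -0.60 (SE 0.11) had an adjusted p of 0.168 with limma, the lowest of the 30 genes.

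SREBF2, which encodes the SREBP that chiefly drives the sterol genes, stood at 85.5 and 88.8 TPM in control and 86.0 and 81.1 TPM with JOA, so its groups overlapped, with a log2 change of -0.06 (SE 0.10). TMEM97, the sigma-2 receptor, stood at 69.5 and 69.4 TPM in control and 60.9 and 58.4 TPM with JOA. Its replicates were close and the groups separate, with a log2 change of -0.22 (SE 0.10, limma's adjusted p = 0.512). STARD4, a cytosolic sterol carrier, overlapped between groups at 11.6 and 14.7 TPM in control and 10.6 and 12.7 TPM with JOA.

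The 7 fatty acid genes were all negative in NB4, with a median of -0.45, and the 3 desaturases were lower at an unadjusted p under 0.05. FADS2, the delta-6 desaturase of polyunsaturated fatty acids, stood at 166.3 and 253.1 TPM in control and 135.5 and 120.0 TPM with JOA, a log2 change of -0.68 (SE 0.19, limma's adjusted p = 0.298). SCD, which makes oleate from stearate, stood at 165.0 and 244.7 TPM in control and 134.9 and 123.3 TPM with JOA, a log2 change of -0.64 (SE 0.18, limma's adjusted p = 0.3). For both genes every JOA library lay below every control, as it did for FADS1, the delta-5 desaturase (log2 change -0.55).

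Of the genes that build the fatty acid chain itself, FASN, ACLY and ACACA had smaller changes in NB4 than the desaturases. FASN, fatty acid synthase and the most abundant of the 30 genes at a control mean of 301 TPM, stood at 241.3 and 360.7 TPM in control and 256.2 and 225.7 TPM with JOA, so the groups overlapped (log2 change -0.29, SE 0.18). ACLY, which supplies cytosolic acetyl-CoA from citrate, and ACACA, which makes malonyl-CoA, had log2 changes of -0.06 and -0.01, and both overlapped. ELOVL6, an elongase, ran from 7.25 TPM in control 2 to 25.5 TPM in control 1, so its log2 change of -0.45 had an SE of 0.51. That spread lay in a processed transcript that codes for no protein (21.5 and 2.86 TPM in control, 10.9 and 3.23 TPM with JOA), while the main coding transcript of ELOVL6 held 2.60 and 3.45 TPM in control and 2.10 and 2.96 TPM with JOA.

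**Figure D2:**
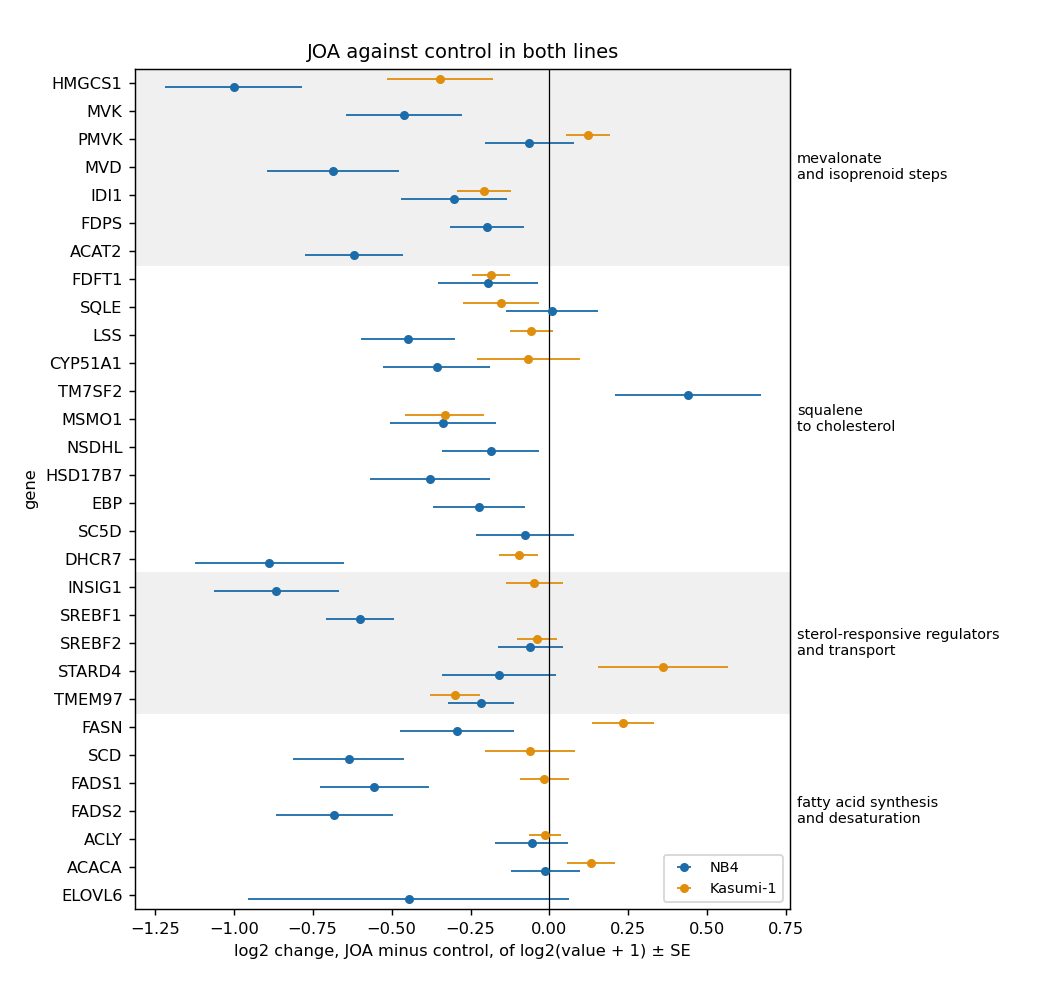
Log2 change with JOA, as the difference of mean log2(value + 1), with its SE, for 30 genes in NB4 (blue) and 18 in Kasumi-1 (orange), by role. The SEs drawn are from the unpaired fits, unlike the Kasumi-1 SEs in the text, which are from the blocked fit. The blue points run from -1.001 for HMGCS1 to 0.44 for TM7SF2, and the orange points from -0.35 for HMGCS1 to 0.36 for STARD4.

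The 2 NB4 controls differed on this list more than the JOA libraries did. Control 2 was above control 1 in 28 of 30 genes (all but TMEM97 and ELOVL6), against 38.1% of all genes, with a median log2 difference of 0.41 over the list and -0.07 over all genes. JOA 2 was above JOA 1 in 6 of 30, with a median log2 difference of -0.11. Both JOA libraries lay below control 2 in 27 of 30 genes (all but TM7SF2, ACACA and ELOVL6), against 22.4% of all genes, and below control 1 in 17 of 30, against 24.7%. The 30 genes held 0.221 and 0.296% of the TPM in control, and 0.204 and 0.186% with JOA.

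The size of the NB4 difference therefore depended on the control used. Without control 1 the median log2 change of the list was -0.54, 28 of 30 changes were negative, against 32.2% of all genes, and 19 were lower at an unadjusted p under 0.05, against 3.49%. Without control 2 the median was -0.13, 23 of 30 changes were negative, against 40.1% of all genes, and 8 were lower at that p, against 2.03%. HMGCS1 had a log2 change of -1.35 without control 1 and -0.65 without control 2, DHCR7 -1.29 and -0.48, INSIG1 -1.19 and -0.54, and SREBF1 -0.69 and -0.51. Of the 16 genes whose groups did not overlap, TMEM97 and SREBF1 moved least with the choice of control. The median of the 11 genes from squalene synthesis to cholesterol came to -0.02 without control 2. Why control 2 stood higher was not tested.

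**Figure D3:**
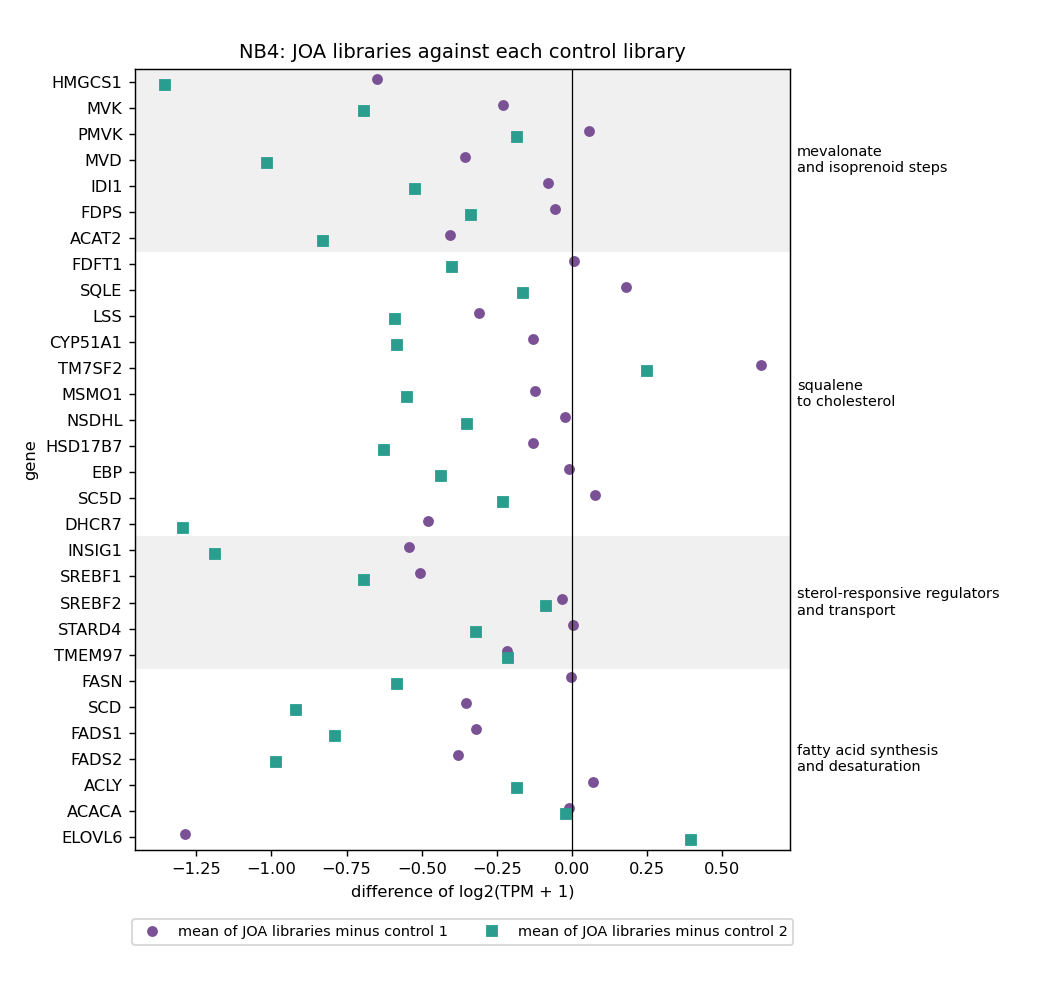
NB4: mean log2(TPM + 1) of both JOA libraries minus that of control 1 (purple circles) or control 2 (green squares), for each of the 30 genes. The green points lie left of the purple ones except for ELOVL6 and TMEM97, with medians of -0.54 and -0.13.

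A fit with 1 estimate of spread over the 10 libraries of both lines, on 7294 genes found in both tables, called 2 of 18 list genes lower in NB4, against 0.452% of all genes in that direction. These were INSIG1 (limma's adjusted p = 0.0326) and DHCR7 (limma's adjusted p = 0.0417), and HMGCS1 came next (limma's adjusted p = 0.0505). Without control 1 this fit called 8 of the 18 lower, against 1.73% of all genes, and without control 2 or without JOA 2 it called 0, against 0.384 and 0.288% of all genes lower. The fit assumes the same spread in both lines, while the median replicate SD of these genes on the log2 scale was 0.101 in Kasumi-1 and 0.132 in NB4, so its adjusted p-values for NB4 are too small. On simulated data, where the spread of each gene was drawn separately in each line, it made many false calls in NB4. That setting was chosen and not measured, so the rate of false calls in these libraries is unknown. These calls carry little weight.

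The NB4 table lists transcripts. Of 176 transcripts of the list tested, 133 had a negative change, against 41.3% of all 51643 transcripts, and 136 had the sign of their gene, which is their sum. At an unadjusted p under 0.05, 25 were lower and 3 higher, against 2.53 and 4.19% of all transcripts. The 176 include 5 whose values repeat those of another transcript of the gene, and with such values counted once 128 of 171 were negative. The limma test called 0% of all transcripts at an adjusted p of 0.05 (lowest adjusted p = 0.295), but on simulated data it recovered none of the changes put in, so this count says nothing of whether a transcript changed. The main coding transcripts of HMGCS1 (36.0 and 66.3 TPM in control, 25.2 and 25.4 TPM with JOA) and of INSIG1 (61.1 and 108.0 TPM, 49.2 and 44.2 TPM) carried most of each gene's level. In FDPS, 1 coding transcript stood at 39.1 and 41.5 TPM in control and 21.6 and 18.9 TPM with JOA, with close replicates and a log2 change of -0.96 (SE 0.14, limma's adjusted p = 0.731). The most abundant coding transcript of FDPS stood at 57.6 and 66.4 TPM in control and 62.9 and 59.0 TPM with JOA, so the groups overlapped there.

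SREBF1 has an upstream first exon, which gives the SREBP-1a form, and a downstream one, which gives SREBP-1c, the form known for fatty acid genes. The 2 transcripts that start upstream summed to 36.1 and 35.0 TPM in control and 28.3 and 22.8 TPM with JOA. The 3 that start at the downstream exon summed to 12.9 and 12.6 TPM in control and 8.53 and 7.14 TPM with JOA. None of these 3 spans the gene. The most abundant is annotated as coding with 5 exons and stops at base 17819027, while the upstream ones run on to 17812073. The rest are a retained intron and a noncoding processed transcript. A full-length SREBP-1c transcript was therefore not measured. Both classes were lower in each JOA library than in each control. The other 17 transcripts, which start further inside the gene and are mostly fragments, summed to 80.7 and 100 TPM in control and 52.8 and 62.5 TPM with JOA.

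In Kasumi-1 the list showed smaller differences, in both directions. Of 18 genes, 14 had a negative log2 change, with a median of -0.06, against a median of 0.05 over all 12101 features tested, of which 38.1% were negative. The unpaired limma test called 0 of 18 genes and 0% of all features (lowest adjusted p = 0.116). Without adjustment, 4 of 18 were lower at a p under 0.05 (IDI1, FDFT1, MSMO1 and TMEM97), against 4.68% of all features, and 1 was higher (FASN), against 11.7%. In those same 4 genes that were lower, every JOA library lay below every control, against 7.1% of all features, and 0 of 18 lay wholly above, against 16%.

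Same-numbered Kasumi-1 libraries deviated together, as described under the processing, and fitting the replicate number as a block called 6 of 18 genes. HMGCS1, FDFT1, MSMO1 and TMEM97 fell, against 2.06% of all features, and STARD4 and FASN rose, against 6.08%. With median-ratio scaling in the blocked fit, the calls over all features went from 736 higher and 249 lower to 492 higher and 451 lower (4.07 and 3.73% of all features). The 4 lower genes kept their calls there and IDI1 joined them (limma's adjusted p = 0.0393), while STARD4 (adjusted p = 0.0512) and FASN (adjusted p = 0.0632) missed the threshold. With quantile scaling in the blocked fit, only HMGCS1 (lower, against 1.62% of all features) and FASN (higher, against 2.56%) were called. In the blocked fit without added scaling, leaving out any 1 pair left 0 of 18 called. Nearly all other calls were lost as well, with 0, 68 and 0 of 12101 features called without pair 1, 2 or 3.

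HMGCS1 stood at 22.2, 22.5 and 32.0 FPKM in Kasumi-1 controls and 18.3, 17.3 and 23.9 FPKM with JOA. Control 3 and JOA 3 were the high libraries of their groups, so the groups overlapped while each pair was lower with JOA, with a log2 change of -0.35 (SE 0.04, limma's adjusted p = 0.0290 with the block and 0.357 without). This SE and those of the other Kasumi-1 changes below are from the fit with the block. IDI1 stood at 42.4, 42.3 and 49.0 FPKM in control and 39.1, 34.9 and 41.4 FPKM with JOA. The IDI1 groups were separate, with a log2 change of -0.21 (SE 0.04, limma's adjusted p = 0.0521 with the block). PMVK, the third gene of these steps held in Kasumi-1, overlapped between groups, with a log2 change of 0.12.

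All 6 genes from squalene synthesis to cholesterol measured in Kasumi-1 had negative changes, with a median of -0.12. MSMO1 stood at 12.4, 11.6 and 16.1 FPKM in control and 9.42, 10.2 and 11.4 FPKM with JOA. Every JOA library was below every control, by a narrow margin between JOA 3 and control 2, and the log2 change was -0.33 (SE 0.06, limma's adjusted p = 0.0440 with the block and 0.261 without). FDFT1 stood at 46.5, 48.0 and 50.1 FPKM in control and 39.7, 42.6 and 44.6 FPKM with JOA. Its groups were separate too, with a log2 change of -0.18 (SE 0.04, limma's adjusted p = 0.0441 with the block and 0.216 without). SQLE, LSS and DHCR7 were lower in each pair but overlapped between groups, with log2 changes of -0.15, -0.06 and -0.10. CYP51A1 was low, at 1.03 to 1.83 FPKM over the 6 libraries, and mixed between pairs.

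TMEM97 had the widest gap between groups among the 18 genes in Kasumi-1, at 40.2, 41.9 and 40.0 FPKM in control and 34.5, 35.4 and 29.2 FPKM with JOA. Every JOA library was well below every control, and the log2 change was -0.30 (SE 0.06, limma's adjusted p = 0.0415 with the block and 0.169 without). STARD4 stood at 5.33, 5.41 and 8.21 FPKM in control and 8.03, 6.40 and 10.8 FPKM with JOA. It was higher in each pair although the groups overlapped, with a log2 change of 0.36 (SE 0.07, limma's adjusted p = 0.0442 with the block and 0.429 without). INSIG1 stood at 24.1, 28.7 and 27.4 FPKM in control and 24.5, 28.6 and 24.4 FPKM with JOA. Its groups overlapped, with a log2 change of -0.05, and so did those of SREBF2 (log2 change -0.04), whose Kasumi-1 row is a noncoding RefSeq record.

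The fatty acid genes of Kasumi-1 had a median log2 change of -0.01 over 5 genes. FASN, matched here through a predicted RefSeq record, stood at 95.3, 102.9 and 109.1 FPKM in control and 105.2, 124.3 and 133.4 FPKM with JOA. Each pair was higher with JOA while JOA 1 lay among the controls, and the log2 change was 0.23 (SE 0.04, limma's adjusted p = 0.0419 with the block and 0.301 without). ACACA stood at 15.8, 17.8 and 17.04 FPKM in control and 16.9, 19.1 and 19.8 FPKM with JOA. It was higher in each pair, with overlapping groups and a log2 change of 0.13 (SE 0.04, limma's adjusted p = 0.115 with the block). SCD ran from 79.5 to 108.3 FPKM over the 6 libraries, with a log2 change of -0.06, and FADS1 and ACLY had log2 changes of -0.02 and -0.01.

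Over the list, 9 of 18 genes were lower in each of the 3 Kasumi-1 pairs, against 17.8% of all features, 3 (STARD4, FASN and ACACA) were higher in each, against 36%, and 6 were mixed. Some of the 9 rest on near ties. ACLY had log2 changes of -0.001, -0.017 and -0.023 in the pairs, LSS had -0.001 in pair 3, and SQLE had -0.009 in pair 1. The share of FPKM held by the 18 genes was 0.240, 0.248 and 0.264% in control and 0.242, 0.245 and 0.256% with JOA, so it did not separate the groups.

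**Figure D4:**
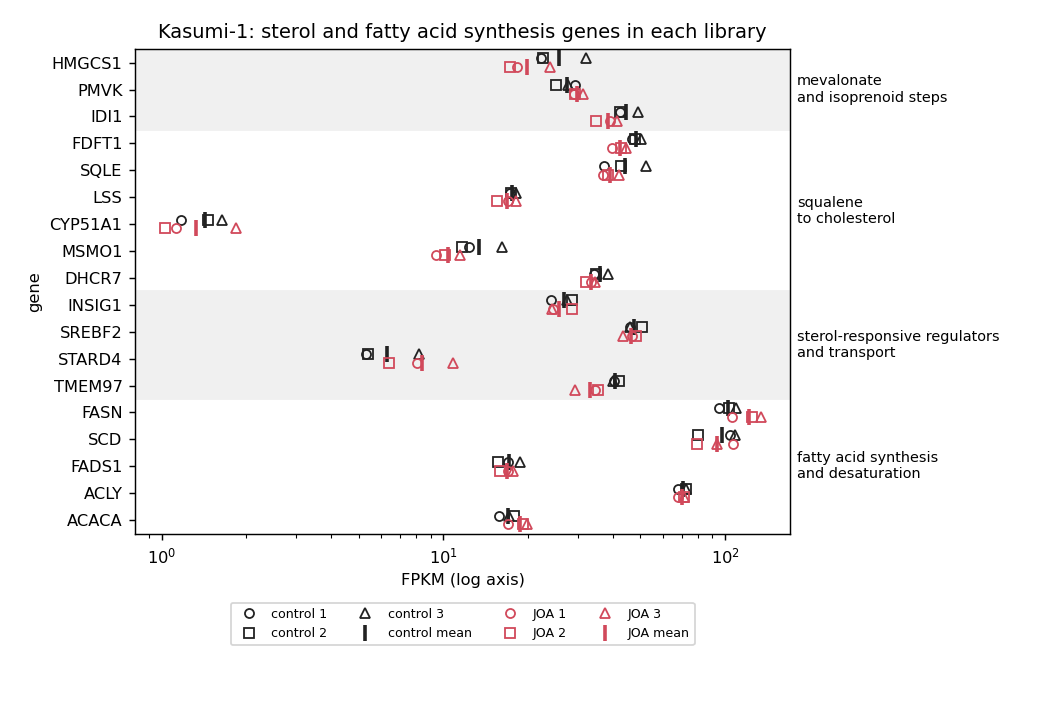
Kasumi-1: FPKM of each of the 18 matched genes (log axis) in 3 control libraries (black) and 3 JOA libraries (red), with the marker shape giving the replicate number and bars for group means. The red points lie wholly left of the black ones for IDI1, FDFT1, MSMO1 and TMEM97.

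The 2 lines were compared in 1 fit over the 10 libraries as the change in Kasumi-1 minus that in NB4. This difference was positive for 16 of 18 genes, with a median of 0.24 against -0.05 over all 7294 genes, but 0 of 18 passed an adjusted p of 0.05 with limma, against 0.192% of all genes. An unadjusted p under 0.05 was reached by 6 of 18, all with the more negative change in NB4, against 3.87% of all genes. They were INSIG1 (difference 0.82, SE 0.22, limma's adjusted p = 0.215), DHCR7 (0.79, SE 0.24, limma's adjusted p = 0.263), SCD (0.58), FADS1 (0.54), FASN (0.53) and LSS (0.39). HMGCS1, which had the most negative change of the list in each line, was not among these 6. Without NB4 control 1 the fit called 3 of 18, namely INSIG1, DHCR7 and FADS1, against 0.398% of all genes in that direction, and 1 of 18 differences was negative, against 62.8%. Without NB4 control 2 it called 0, against 0.151%, with 7 of 18 differences negative, against 52.9%. The same assumption of equal spread underlies this fit, which also made false calls on simulated data.

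By contrast, the differences for MSMO1 (0.00, SE 0.21), FDFT1 (0.01, SE 0.17), TMEM97 (-0.08, SE 0.12) and IDI1 (0.09, SE 0.18) lay near 0. These 4 genes are the ones whose JOA libraries all lay below the controls in Kasumi-1, and MSMO1 and TMEM97 were separate in NB4 as well. Intervals of this width do not show that the lines respond alike.

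Genes around the pathway were read from 6 further lists. Of 12 genes of sterol sensing and SREBP processing, 12 were tested in NB4 and 6 in Kasumi-1. None was called in NB4, with a median log2 change of 0.11, and in Kasumi-1 SCAP, the escort of SREBP, rose with the block, from 20.1, 23.2 and 22.6 FPKM to 23.8, 26.4 and 26.8 FPKM (log2 change 0.22, limma's adjusted p = 0.0390), the 1 call among the 6, against 6.08% of all features called higher in that fit. With median-ratio scaling SCAP had an adjusted p of 0.0501. In the isoprenoid branch, 0 of 8 genes in Kasumi-1 and 0 of 10 in NB4 were called, with medians of -0.04 and 0.05.

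Of the other fatty acid and glyceride synthesis genes, 0 of 10 were called in Kasumi-1 with the block and 0 of 19 in NB4, with medians of 0.05 and 0.02. ME1, the malic enzyme that supplies NADPH, stood at 5.73 and 6.48 TPM in NB4 controls and 9.59 and 12.01 TPM with JOA (log2 change 0.73, limma's adjusted p = 0.284). FABP5, a fatty acid binding protein, stood at 102.9 and 136.6 TPM in control and 85.5 and 72.0 TPM with JOA (log2 change -0.59, limma's adjusted p = 0.292). Both were separate between groups, in opposite directions.

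Among genes of cholesterol uptake, transport and esterification, PLIN2, a lipid droplet coat protein, rose in Kasumi-1 with the block, from 9.28, 9.14 and 8.96 FPKM to 15.2, 13.9 and 12.6 FPKM (log2 change 0.56, SE 0.05, limma's adjusted p = 0.0276), the 1 call among 7 genes tested, against the same 6.08%. In NB4, PLIN2 stood at 16.5 and 20.5 TPM in control and 11.6 and 19.5 TPM with JOA, so the groups overlapped, and 0 of 12 genes of that list were called. Among genes of fatty acid oxidation, PPARA, the nuclear receptor that drives them, rose in Kasumi-1 with the block, from 4.18, 3.22 and 4.49 FPKM to 5.67, 4.61 and 6.66 FPKM (log2 change 0.42, limma's adjusted p = 0.0296), the 1 call among 8, again against 6.08%. In lists this small, 1 call is not a result about the list. Without the block, the 8 fatty acid oxidation genes had a median log2 change of 0.15 in Kasumi-1, against 0.05 over all features. Of the 8, 2 were negative, against 38.1% of all features. An unadjusted limma p under 0.05, in either direction, was reached by 5 of 8, against 1982 of 12101 features. In NB4 the median of that list was -0.06, and 0 of 15 reached that p. No gene of that list was called in NB4 (0 of 15), and none of a list of the sterol receptor LXR, its targets and efflux genes was called in either line. In Kasumi-1 this list came to MYLIP alone (0 of 1), and in NB4 to both receptor genes, NR1H2 and NR1H3, and to ABCA1, MYLIP and LPCAT3 (0 of 5).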

How the data were processed

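The authors deposited 1 table per line. Per the labels' protocols, RNA was isolated with Trizol and sequenced from stranded mRNA libraries. The submitters' processing notes list HISAT2, HTSeq, Cufflinks, Trimmomatic and hg38, without roles or versions. The deposited Kasumi-1 values are FPKM in 29053 rows, each named by a sequence record. A RefSeq symbol was found for 10906 rows (37.5%, holding 45.8% of the FPKM), and each matched gene of the list rests on 1 record. The deposited NB4 values sum to nearly the same fixed total in each library and were taken as TPM. Of 121005 NB4 transcripts 99.3% matched GENCODE v29, and they were summed to genes.

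limma 3.58.1 (in R 4.3.3, with Python 3.11.15 to read the tables) was run per line on log2(value + 1), with a variance trend, on features that reached 1 in at least 3 (Kasumi-1) or 2 (NB4) libraries, 2-sided, with p adjusted over all features. A log2 change on this scale understates that of genes at low level. Simulated data with normal noise were made for each main fit. For the fits within a line, including the transcript fit, spread was drawn from limma's own model of these libraries. For the shared-spread fit and the difference between lines, only the level of spread came from that model. How widely genes varied around that level was chosen there. The unpaired Kasumi-1 simulation held no pairs. Such data show what a fit can recover under the settings used, and false calls in the real libraries were not measured. The gene fits within a line recovered most large changes with few false calls, though the NB4 fit missed most of the smallest ones. The shared-spread fit made many false calls in NB4, the fit of the difference between lines made fewer, and the transcript fit recovered no change.

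Control and JOA libraries share replicate numbers. In Kasumi-1, libraries with the same number deviated together from their group means (correlations of 0.330, 0.500 and 0.424), while every other combination gave -0.061 or less. The numbers were therefore taken as pairs in that line, which rests on the values, since no label states it.

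The genes and lists were chosen with earlier results of these data known. Values in every library of a line are given for genes called in the unpaired, blocked or shared-spread fit of that line. They are also given for the 2 largest changes per role in that line. Some of these genes, but not all, have their values given in the other line too. SQLE, TM7SF2, SREBF2, ELOVL6 and the transcripts named were added after their values were seen. Context genes are named where called or among the 2 largest changes of their list. One of these is not reported here. Alternatives were other pseudocounts (0.1 and 5), filters, scalings and variance models, the block, and leaving out each library.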

Additional observations from a re-analysis of the deposited data

How the results depend on the processing

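With the replicate block, limma called 985 features and 6 list genes in Kasumi-1, 943 and 5 with median-ratio scaling added, and 506 and 2 with quantile scaling added; without a block the shared-spread fit called 4 features and 0 list genes. Leaving out libraries gave 0 to 68 features and 0 list genes there. In NB4 the numbers do not pair the libraries (correlation 0.067 over 2 numbers). The block gave 205 genes there, 80 lower and 125 higher of 13050 tested. It called 6 of the list, all lower (HMGCS1, DHCR7, INSIG1, SREBF1, FADS2 and SCD). The block gave 4 genes and 0 of the list with median-ratio scaling added, and 79 and 1 with quantile scaling added. Against 2 genes in the unpaired NB4 fit, there were 0 with a pseudocount of 0.1 or no low-value filter, 6 with no variance trend, 13 with protein-coding transcripts, 1 with primary annotation transcripts, 158 with shared spread and 92 with shared spread and median-ratio scaling, the last pair with 2 list genes each. Leaving out an NB4 library gave 1 to 6 genes and 0 list genes, and in the shared fit 676 (without control 1), 83 (without control 2), 192 (without JOA 1) and 78 (without JOA 2), with 8, 0, 1 and 0 list genes. The list's NB4 median ran from -0.5364 to -0.1269 when a library was left out, and stayed negative under each alternative run in both lines. The difference between lines had 14 calls, 43 with the block, 1 with both tables rescaled to 1 common total, 2 with a pseudocount of 0.1, and 2 to 110 with a library left out, with 0 to 3 list genes. The transcript test, which recovered no change on simulated data, gave 0 calls, the block included, which says nothing of stability. The causes of these changes were not tested, beyond the fewer libraries of the last ones.

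The small groups set the limits, most of all 2 against 2 in NB4, where a missed threshold does not show that a gene was unchanged. The 2 NB4 controls differ on the list, the Kasumi-1 pairs rest on the values, and 12 of the 30 genes were not analysed in Kasumi-1. Combined scalings, the shared-spread fits with a library left out and the primary-annotation setting were chosen after seeing the data.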
